A study of Homo sapiens with 12 samples.

Results

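The replication-dependent histone genes encode the bulk of the core histones H2A, H2B, H3 and H4 and of the linker histone H1. They were taken as the protein-coding genes whose symbols carry the cluster names of these families (H2AC, H2BC, H3C and H4C with a number, and H1-1 to H1-5). Of 68 such genes, 60 reached a mean of 10 counts over the 12 libraries, out of 21188 genes of the series that did so and 61860 genes in all. By family these were 4 of 5 H1 genes, all 17 H2A genes, 17 of 18 H2B genes, 10 of 13 H3 genes and 12 of 15 H4 genes. The 8 that fell short were H1-5, H2BC9, H3C7, H3C8, H3C11, H4C6, H4C13 and H4C7. None of the first 7 exceeded 7 counts in a library and H4C7 had 0 counts in each.

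RNA was sequenced from HEK293 Flp-In T-REx cells, a human embryonic kidney line with a single site for inserted constructs. Doxycycline (1 µg/ml, 6 days) was given to all groups and induced miRNAs against the endogenous PGC-1α mRNA. It also induced a PGC-1α that these miRNAs spare, in full length in the WT-res line and lacking its RS domain in the ΔRS-res line. PGC-1α is a transcriptional co-activator, and the study compared the lines to ask which mRNAs need its RS domain to leave the nucleus. Whole-cell RNA and cytoplasmic RNA obtained by hypotonic lysis each gave 3 libraries per line, from consecutive passages. Each line grew from an individual surviving colony, so that the construct and the clone cannot be told apart, and without separate clones p-values measure the spread between passages of 1 line. Ribosomal RNA was depleted and no poly(A) selection was made, so that mRNAs without a poly(A) tail were included.

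Library totals ran from 90333190 to 144628005 counts. Levels are given as CPM, counts scaled to library sizes adjusted by TMM. Of 4 genes that HEK293 cells express, INA lay between 51.3 and 92.5 CPM, PAX2 between 2.79 and 5.81 CPM, LHX1 between 1.64 and 4.01 CPM and NEFM between 0.258 and 0.694 CPM. ALB, PTPRC and KRT5, which mark hepatocytes, leukocytes and keratinocytes, stayed at or below 0.125 CPM, and COL1A1, a collagen gene of fibroblasts, lay between 2.98 and 6.64 CPM. PPARGC1A, the gene of PGC-1α, was read from the endogenous and the introduced copies together and lay between 487 CPM, the value of the library described next, and 682.5 CPM in WT-res and between 295.7 and 486.1 CPM in ΔRS-res libraries. One library went against its label. In the whole-cell library labelled WT-res replicate 3, DDX19B stood at 0.194 CPM and SDHA at 327.6 CPM, against 12.1 to 15.2 CPM and 68.0 to 77.2 CPM in the other WT-res libraries and 0.223 to 0.352 CPM and 325.6 to 382.3 CPM in ΔRS-res. Comparisons that include this library are given without it as well where that changes a call or a value by much.

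Histone proteins are needed in large amounts while DNA is copied, and these genes are transcribed mainly in S phase at histone locus bodies, under NPAT. Their pre-mRNAs, which as a rule have no introns, are not polyadenylated: a stem-loop in the 3′ end is bound by SLBP, the U7 snRNP directs a single cleavage just after it, and SLBP stays with the mRNA during export, translation and decay. Many copies of each gene lie together in clusters, so that the mRNA for 1 protein comes from several loci.

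The stem-loop was read from the GRCh38 transcripts of the genes, as the element that the members have in common and that the rule did not use. A 16-base stem-loop pattern was found in the last 60 bases of 67 of the 68 genes, and of 59 of the 60 that passed, against 191 of 88978 other protein-coding transcripts (0.215%). The median distance from its end to the annotated 3′ end was 5 bases. H2BC21 was the exception, with a longer annotated transcript (2224 bases). For each family 1 of its 2 members of highest level, and the gene pair that separated the lines, are shown with the stem-loop in capitals:
H1-2, chr6:26055740-26055764 (-): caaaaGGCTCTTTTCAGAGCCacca
H2AC18, chr1:149842218-149842243 (-): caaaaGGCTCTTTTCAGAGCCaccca
H2BC18, chr1:149811880-149811905 (-): ccaaaGGCTCTTTTCAGAGCCacttc
H3C2, chr6:26031592-26031617 (-): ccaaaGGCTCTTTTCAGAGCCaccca
H4C14, chr1:149833027-149833052 (+): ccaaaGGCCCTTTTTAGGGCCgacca
H2AC8, chr6:26217412-26217437 (+): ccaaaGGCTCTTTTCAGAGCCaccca
H2BC8, chr6:26216213-26216238 (-): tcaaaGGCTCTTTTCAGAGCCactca
The most frequent form, that of H1-2, was carried by 4 H1, 13 H2A, 11 H2B and 11 H3 genes. In the 15 H4 genes the stem instead read GGCCC on its 5′ side and GGGCC on its 3′ side, and the loop varied.

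The members lay in few places. On chromosome 6, 46 members between bases 25723397 and 27893891 held 63.8% of all member counts. On chromosome 1, 11 members between bases 149782689 and 149887965 held 34.3%, and 2 members between bases 228434777 and 228463104 held 1.52%, while H4C16 on chromosome 12 had 0.4%. Levels per kilobase (counts divided by transcript length and scaled to the same total in each library, as for TPM) ran from 0.309 to 2480 between members. The 14 members with a mean of 1000 or more held 67.5% of the summed level, 38 lay between 1 and 1000, and 8 lay under 1.

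**Figure D1:**
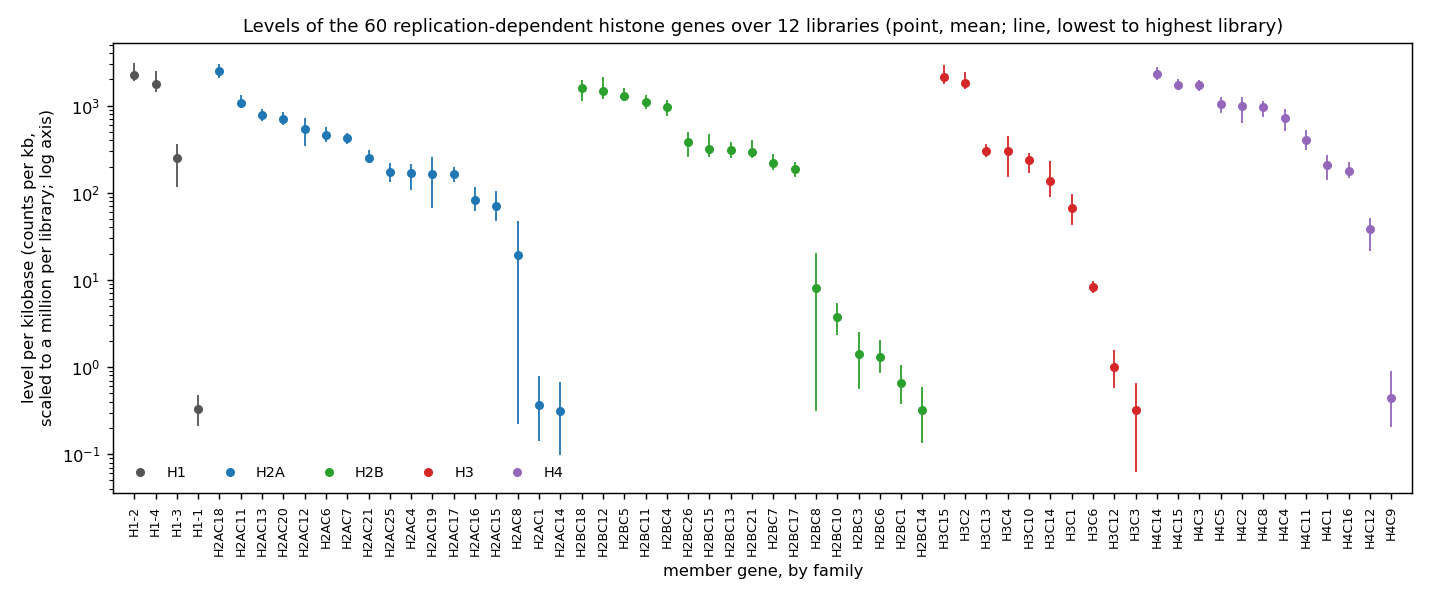
Mean level per kilobase of each of the 60 members (points, log axis) with the lowest and highest of the 12 libraries (lines), grouped by family. Every family spans at least a few orders of magnitude, and the longest lines are those of H2AC8 and H2BC8.

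Among the linker histones, H1-2 and H1-4 led with 2279 ± 360 and 1779 ± 371 (SD over 12 libraries) per kilobase. H2AC18 had the highest level of all members, and H2AC11 followed it among the H2A genes. H2BC18 and H2BC12 led the H2B genes, H3C15 and H3C2 the H3 genes, and H4C14 and H4C15 the H4 genes. Summed over a family, the mean level per kilobase was 10330 for H4, 8172 for H2B, 7564 for H2A, 4998 for H3 and 4310 for H1.

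Several loci cannot be separated by their reads. Of the 100-base windows of H2AC18, 100% also occur in H2AC19, and H3C14 with H3C15, H4C11 with H4C12 and H4C14 with H4C15 share at least 90.7% of theirs. The division of counts within these 4 pairs is an estimate of the authors' quantifier, and their sums are given where a result turns on one of them. H3C4 and H2AC7 share 96% and 82% of their windows with an overlapping gene model (ENSG00000282988), and H2AC17 shares 63.7% with the overlapping H3C12. No sums were made for these overlaps, so the counts of these members are estimates too. H2AC8 and H2BC8 share no window with any other gene of the file. For 16 members several transcripts were listed. The spliced form H3C6-202 held 86.8% of the counts of H3C6 and H2BC6-202 held 88.4% of those of H2BC6, so the reads given to these 2 genes came mostly from transcripts longer than a histone mRNA. Of H4C16, the spliced form H4C16-201 held 2.76% ± 0.645 of the counts in WT-res whole-cell and 0.524% ± 0.135 in WT-res cytoplasmic libraries (SD, n = 3), and 2.63% ± 0.288 and 0.582% ± 0.191 in ΔRS-res, with no overlap between the fractions. No test was run on these shares.

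The first comparison asked how the histone mRNAs were distributed between cytoplasmic and whole-cell RNA. Together the 60 members made up 12110, 11924 and 11348 CPM in the WT-res whole-cell libraries, and 15035, 12829 and 14489 CPM in the cytoplasmic ones. In ΔRS-res the sums were 12173, 10842 and 11302 CPM in whole-cell and 12315, 14732 and 14700 CPM in cytoplasmic RNA. In both lines all cytoplasmic sums lay above all whole-cell sums. The histone genes thus took between 1.14% and 1.46% of a library, and the mean was 11790 ± 397 CPM in whole-cell and 14120 ± 1149 CPM in cytoplasmic RNA of WT-res, and 11440 ± 676 and 13920 ± 1386 CPM in ΔRS-res (SD, n = 3). These are shares of each RNA pool, not amounts per cell, and fewer cells in S phase and less histone mRNA per cell cannot be told apart in bulk RNA. The sample sheet of the study gives 1 pellet ID to both fractions of each passage. In the methods 1 well served for the whole cells, whereas the cytoplasm was taken from 6 wells together. Whether both fractions hold the same cells is thus not shown. By pellet ID the ratio of the sums was 1.24, 1.08 and 1.28 in WT-res and 1.01, 1.36 and 1.3 in ΔRS-res. The third WT-res ratio divides by the library that went against its label, so it may not be a pair. ΔRS-res pellet 1 stood apart, with a sum hardly above its whole-cell partner and 41 of 60 members higher, against 58 and 55 in the other pellets of that line.

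Tested one by one in a joint fit of the 12 libraries with edgeR's quasi-likelihood test, 12 members passed an adjusted p (Benjamini-Hochberg) of 0.05 as higher in the cytoplasm of WT-res and 0 as lower (at an unadjusted p under 0.05, 20 and 0, and with DESeq2's Wald test 21 and 0). Of all 26686 genes tested, 16.9% were called higher and 24.8% lower. An unadjusted p under 0.05, in either direction, was reached by 13230 of them, and the Wald test called 5863 higher and 6069 lower. In ΔRS-res 22 members were called higher and 0 lower (30 and 1 at an unadjusted p under 0.05, 32 and 0 with the Wald test), against 16.6% and 24.3% of all genes. There 12904 of the 26686 genes had an unadjusted p under 0.05, and the Wald test called 5696 higher and 5936 lower. The median log2 fold change of the members was 0.21 in WT-res and 0.30 in ΔRS-res, where that of all genes was -0.05 and -0.06, and 53 and 57 of the 60 estimates were above 0. Groups that did not overlap, with the cytoplasm higher, were seen for 27 members in WT-res (21.5% of all genes) and for 22 in ΔRS-res (22.7%), and with the cytoplasm lower for 2 (29.0%) and 1 (30%). In WT-res the share of members called higher, 20.0%, was thus near the background of 16.9%, whereas in ΔRS-res it was 36.7%. The 9 members called in both lines were H2AC19, H2BC12, H3C2, H3C10, H4C3, H4C5, H4C8, H4C11 and H4C16, that is, 9 of the 12 WT-res calls and 40.9% of the ΔRS-res calls, and 35 members were called in neither line.

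**Figure D2:**
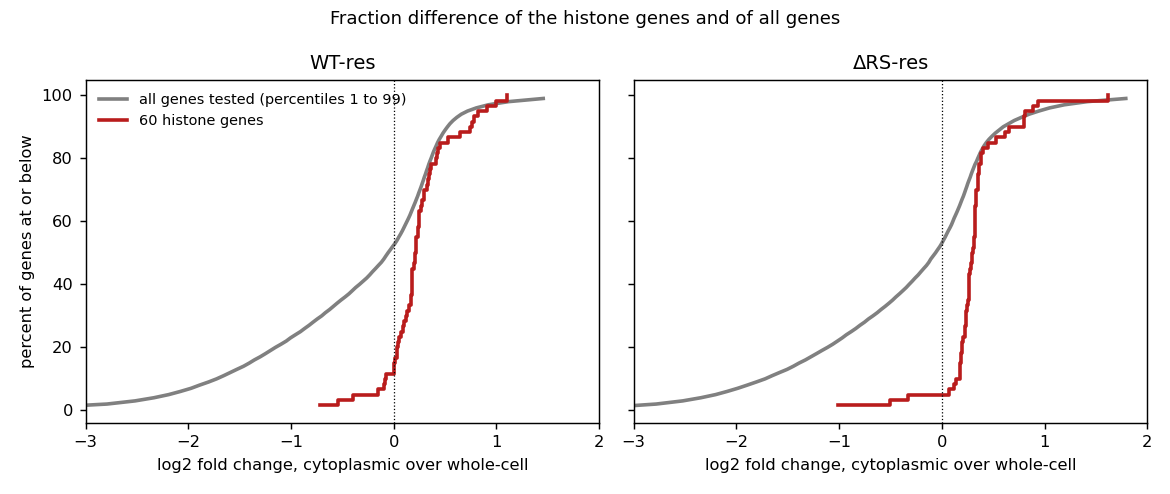
Cumulative distribution of the log2 fold change of cytoplasmic over whole-cell RNA for the 60 histone genes (red) and all genes tested (grey), in each line. The histone curve rises steeply just right of 0, at medians of 0.21 and 0.30, whereas a large part of all genes lies well below 0.

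The H4 genes held the most WT-res calls, with 6 of 12, and the H2B genes the most in ΔRS-res, with 8 of 17. Of the H3 genes 3 and 5 of 10 were called, of the H2A genes 1 and 4 of 17, and of the H1 genes 1 and 0 of 4, in WT-res and ΔRS-res in that order. H2BC12, an abundant H2B gene, was read at 426, 415.7 and 475.5 CPM in the WT-res whole-cell and at 647.3, 510.3 and 614.2 CPM in the WT-res cytoplasmic libraries. In ΔRS-res it stood at 420.6, 399.9 and 478.2 CPM in whole-cell and 489, 536.4 and 685 CPM in cytoplasmic RNA. The fractions did not overlap in either line, and H2BC12 rose by a log2 fold change of 0.43 (SE 0.13, adjusted p = 0.0201, edgeR) in WT-res and of 0.40 (SE 0.13, adjusted p = 0.0282) in ΔRS-res. H3C2, the second H3 gene by level, had 571.5, 558.4 and 599.4 CPM in whole-cell and 820.7, 633.2 and 766.4 CPM in cytoplasmic RNA of WT-res, and 593, 516.7 and 580.7 against 611.5, 714.8 and 806.9 CPM in ΔRS-res. It rose in both lines, by 0.36 (SE 0.114, adjusted p = 0.0243, edgeR) and 0.34 (SE 0.114, adjusted p = 0.0335), again without overlap of the fractions.

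H1-4 was the one linker histone called, in WT-res. Its WT-res values were 839, 795.5 and 907.5 CPM in whole-cell and 1287, 903.6 and 1289 CPM in cytoplasmic RNA, where replicate 2 fell within the whole-cell range. The WT-res log2 fold change was 0.45 (SE 0.165, adjusted p = 0.0446, edgeR). In ΔRS-res it was measured at 825.3, 761.2 and 951 CPM in whole-cell and 849.7, 1029 and 1300 CPM in cytoplasmic RNA, with overlap, and the estimate of 0.33 did not pass (SE 0.165, adjusted p = 0.139). H1-2, its neighbour in level, passed in neither line, with 0.25 (adjusted p = 0.228, edgeR) and 0.19 (adjusted p = 0.356).

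Among the called members the largest log2 fold changes belonged to near-identical pairs and to weakly expressed genes. H3C14 was read at 33.2, 32.5 and 41.2 CPM in whole-cell and 88.1, 57.7 and 55 CPM in cytoplasmic RNA of WT-res, a log2 fold change of 0.91 (SE 0.199, adjusted p = 0.00335, edgeR). In ΔRS-res it stood at 36.1, 45.9 and 55.6 against 44.9, 59.6 and 52.3 CPM, a log2 fold change of 0.19 (SE 0.198, adjusted p = 0.489). Summed with H3C15, its near-identical partner, the log2 fold change was 0.33 (SE 0.117, adjusted p = 0.0395, edgeR) in WT-res and 0.34 (SE 0.117, adjusted p = 0.035) in ΔRS-res. Between the lines these sums differed by 0.01 (SE 0.165, adjusted p = 1.0). H2AC19 had 50.6, 52.2 and 45.5 CPM in whole-cell and 97.4, 98.9 and 65.3 CPM in cytoplasmic RNA of WT-res, and 45.2, 47.5 and 24.8 against 81.4, 66.1 and 58.1 CPM in ΔRS-res, with log2 fold changes of 0.82 (SE 0.229, adjusted p = 0.0132, edgeR) and 0.81 (SE 0.229, adjusted p = 0.014). With H2AC18 added, these became 0.26 (SE 0.0957, adjusted p = 0.0461, edgeR) and 0.28 (SE 0.0957, adjusted p = 0.0338).

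Of the other sums, H4C14 with H4C15 passed in WT-res (log2 fold change 0.28, adjusted p = 0.0498, edgeR) and not in ΔRS-res (0.19, adjusted p = 0.165), and H4C11 with H4C12 had 0.38 (adjusted p = 0.0435) and 0.36 (adjusted p = 0.053). Between the lines these fold changes differed by -0.09 (SE 0.148) and -0.02 (SE 0.193), and neither difference was called. Summed pairs were not refitted without the whole-cell library labelled WT-res replicate 3. H2AC1, a gene of low level in these cells, was read at 0.0821, 0.0557 and 0.0496 CPM in whole-cell and 0.267, 0.187 and 0.133 CPM in cytoplasmic RNA of ΔRS-res, and rose by 1.62 on the log2 scale (SE 0.345, adjusted p = 0.00254, edgeR). H2BC3, likewise a minor H2B gene, stood at 0.42, 0.288 and 0.405 against 0.847, 0.546 and 0.56 CPM, a rise of 0.80 (SE 0.29, adjusted p = 0.0435, edgeR). Both were also read higher in WT-res without passing, with log2 fold changes of 0.76 (adjusted p = 0.0869) and 0.78 (adjusted p = 0.0515). The lowest estimates were those of H4C9 and H1-1, both under 0.25 CPM in every library, at -0.72 and -0.54 in WT-res and -1.02 and -0.50 in ΔRS-res, and none of these passed. Without the whole-cell library labelled WT-res replicate 3, their WT-res values were -0.30 and -0.62 (adjusted p = 0.654 and 0.137, edgeR).

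The counts of calls depended on single libraries and on the scaling, while the median stayed above 0 under each of these settings. In WT-res the count was 9 without the whole-cell library labelled WT-res replicate 3, with a median of 0.13, and H1-4 (0.50, adjusted p = 0.0529, edgeR) and H4C5 (0.27, adjusted p = 0.0547) were among the calls lost. H2BC12, H3C2, H3C14 and H2AC19 were called without it too, at log2 fold changes of 0.49, 0.39, 1.03 and 0.76 (adjusted p = 0.02, 0.0335, 0.00385 and 0.0394). The count was 6 and 5 without whole-cell replicate 1 or 2 and 5 and 2 without cytoplasmic replicate 1 or 3. In ΔRS-res it was 5 and 8 without whole-cell replicate 2 or 3 and 5 and 11 without cytoplasmic replicate 2 or 3. How many of all genes these fits without a single library called is not given here. With the study's 10 libraries less the one labelled WT-res replicate 3, 17 were called in WT-res, 15 higher and 2 lower (H2BC6 at -0.55, adjusted p = 0.0314 and H3C1 at -0.67, adjusted p = 0.018, edgeR, named after their values were seen), and 41 of 60 estimates lay above 0. Of all 26670 genes tested there, 5451 were called higher and 6752 lower. With library totals in place of TMM 4 and 3 members were called and 45 and 56 estimates lay above 0, and with upper-quartile scaling 27 and 33 were called and 56 and 57 lay above 0. Of all 26686 genes, library totals called 3007 higher in WT-res and 3099 in ΔRS-res, and upper-quartile scaling 6344 and 5669. Upper-quartile scaling moved the median of all genes in WT-res from -0.05 to 0.06 and the share of higher among all calls from 40.6% to 51.3%, and library totals moved that share to 29.8%.

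Whether the fraction difference itself differed between the lines was tested as an interaction. It was called for 0 of the 60 members, with 1 at an unadjusted p under 0.05 (edgeR) and 0 by DESeq2's Wald test, and for 0.00375% of all genes. Of all 26686 genes, 1472 had an unadjusted p under 0.05. The member at that threshold was H3C14, with a difference of log2 fold changes of -0.72 (SE 0.28, adjusted p = 0.774, edgeR), and H2AC16 followed with 0.35 (SE 0.175, adjusted p = 0.954).

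The companion lists are read against 16.9% and 16.6% of all genes called higher in the cytoplasm of WT-res and ΔRS-res. Of 12 replication-independent or polyadenylated histones, 7 were called higher and 0 lower in each line, with medians of 0.27 and 0.29. H3-3B, which encodes the variant H3.3, rose by 0.41 (SE 0.1, adjusted p = 0.00627, edgeR) in WT-res and 0.46 (SE 0.101, adjusted p = 0.00295) in ΔRS-res. H2AZ1 and H2AX, coding for H2A variants, rose by 0.28 and 0.26 (adjusted p = 0.00647 and 0.0168, edgeR) in WT-res, and by 0.29 and 0.31 (adjusted p = 0.00468 and 0.00658) in ΔRS-res. The members had medians of 0.21 and 0.30, given above.

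Of 22 factors of histone mRNA transcription, 3′ processing and decay, 13 and 12 were called higher in the cytoplasm of WT-res and ΔRS-res, and 0 lower. SLBP, the stem-loop binding protein, was read at 79.9, 83.7 and 98.8 CPM in whole-cell and 106.5, 108.3 and 113.3 CPM in cytoplasmic RNA of WT-res and rose by 0.32 (SE 0.0857, adjusted p = 0.0103, edgeR). In ΔRS-res it rose by 0.34 (SE 0.0856, adjusted p = 0.00792). NPAT, the activator of histone gene transcription, rose by 0.39 (SE 0.143, adjusted p = 0.0469, edgeR) and 0.97 (SE 0.145, adjusted p = 0.000201), and its interaction did not pass (0.58, adjusted p = 0.704). LSM11, a U7 snRNP protein, rose in WT-res by 0.44 (SE 0.131, adjusted p = 0.0184, edgeR), its value in ΔRS-res was 0.06 (SE 0.131, adjusted p = 0.755), and its interaction did not pass (-0.38, SE 0.185, adjusted p = 0.938).

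For the S phase and DNA replication list 21 and 17 of 39 genes were called higher, for G2 and mitosis 10 and 12 of 15, and for histone chaperones 7 and 7 of 12, in WT-res and ΔRS-res, with 0 lower in each. Without the whole-cell library labelled WT-res replicate 3, the WT-res counts were 6 of the 12 other histones, 13 of the processing factors, 15 of the S phase genes, 12 of the mitotic genes and 6 of the chaperones, and SLBP, NPAT and LSM11 had log2 fold changes of 0.42, 0.52 and 0.48 (adjusted p = 0.00119, 0.0129 and 0.0242, edgeR). Over these 5 lists with all libraries, none of the 100 genes was lower at an unadjusted p under 0.05 or by DESeq2's Wald test in either line. The 5 other RNAs without a poly(A) tail went both ways, and RN7SL1, RN7SL2 and RN7SK were not called in either line. RMRP, the RNA of RNase MRP, fell by 1.54 (SE 0.162, adjusted p = 1.43e-05, edgeR) and by 1.09 (SE 0.16, adjusted p = 0.00018) on the log2 scale, and RPPH1, the RNA of RNase P, rose in ΔRS-res (0.40, adjusted p = 0.0157). Among 3 nuclear RNAs used as a check of the fractions, KCNQ1OT1 and NEAT1 were called lower in the cytoplasm of both lines, the latter at log2 fold changes of -1.517 and -1.501 (adjusted p = 0.000133 and 0.000119, edgeR), and MALAT1 did not pass (-0.70 and -0.41). Without the whole-cell library labelled WT-res replicate 3, MALAT1 stood at -0.33 in WT-res (adjusted p = 0.326, edgeR). KCNQ1OT1 and NEAT1 were still called lower there, at -1.88 and -1.40 (adjusted p = 3.57e-06 and 0.000526).

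The second comparison was that of the lines, ΔRS-res against WT-res, within whole-cell RNA. The median log2 fold change of the 60 members was -0.04, the quartiles were -0.09 and 0.01, and the family medians lay between -0.08 and 0.00. Without the whole-cell library labelled WT-res replicate 3 the median was -0.09. At an adjusted p of 0.05 edgeR called 0 members and 0.0% of the 26793 genes tested. At an unadjusted p under 0.05 there were 2 members, H2AC8 and H2BC8, and DESeq2's Wald test called the same 2. Among all 26793 genes 3360 had an unadjusted p under 0.05, and the Wald test called 269 higher and 795 lower. Groups did not overlap for 0 members with ΔRS-res higher and for 1, H4C14, with it lower, against 9.6% and 9.56% of all genes. Summed with its near-identical partner H4C15, the groups overlapped, at 1121, 1059 and 1081 CPM in WT-res and 1063, 951.4 and 1071 CPM in ΔRS-res. The largest difference was in the gene pair H2AC8 and H2BC8, which codes for 1 H2A and 1 H2B protein.

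H2AC8 (chromosome 6, 26216921 to 26217437, plus strand) and H2BC8 (26216200 to 26216688, minus strand) are divergent neighbours whose starts lie 232 bases apart. H2AC8 had counts of 1455 and 2081 in WT-res whole-cell replicates 1 and 2 and of 9 in the whole-cell library labelled WT-res replicate 3, and of 31, 37 and 19 in ΔRS-res whole-cell RNA. Scaled to the libraries, this was 15.4, 16.8 and 0.0833 CPM against 0.283, 0.344 and 0.157 CPM. The first 2 WT-res libraries stood far above all ΔRS-res libraries and the other one below them. The log2 fold change was -5.39 (SE 1.45, adjusted p = 0.217, edgeR), and -5.97 without that library (adjusted p = 0.000106). With the replicate number as a block it was -4.998 (adjusted p = 0.0333), and over all alternatives the adjusted p ran from 0.000106 to 0.728.

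H2BC8 went the same way. It was read at 6.93, 6.65 and 0.111 CPM in the WT-res and 0.183, 0.279 and 0.14 CPM in the ΔRS-res whole-cell libraries, the last WT-res value again being that of the library that went against its label. Its log2 fold change was -4.53 (SE 1.22, adjusted p = 0.217, edgeR), -5.10 without that library (adjusted p = 0.000176) and -4.11 with the block (adjusted p = 0.0386), with adjusted p from 0.000176 to 0.728 over all alternatives. Without the library, edgeR called 3 members lower, H2BC10 being added at -0.98 (adjusted p = 0.0496, named after its values were seen), where the range over all alternatives ran from 0.0496 to 0.875. How many of all genes that fit called is not given here, so the 3 cannot be set against a background. H2BC10 had 1.69, 1.85 and 0.824 CPM in WT-res and 1 CPM, 0.752 CPM and 0.967 CPM in ΔRS-res, so that the same library again lay at the ΔRS-res level.

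In the cytoplasm the gene pair separated the lines in every library. H2AC8 stood at 17.2, 16 and 17.5 CPM in WT-res and at 0.609, 0.515 and 0.243 CPM in ΔRS-res, from counts of 1533, 1917 and 2426 against 64, 66 and 33. It fell by 5.22 on the log2 scale with all 6 libraries (SE 0.293, adjusted p = 0.000206, edgeR) and by 4.93 with the 4 libraries that the study kept (SE 0.0995, adjusted p = 3.02e-05). H2BC8 stood at 5.83, 7.14 and 5.43 CPM against 0.39, 0.491 and 0.228 CPM, with log2 fold changes of -4.05 (SE 0.278, adjusted p = 0.000523, edgeR) and -3.64 (SE 0.142, adjusted p = 0.000253). Neither gene was lost altogether in ΔRS-res. Between the fractions of ΔRS-res both were read higher in the cytoplasm in each pellet, with log2 fold changes of 0.80 (SE 1.19, adjusted p = 0.639, edgeR) for H2AC8 and 0.88 (SE 1.01, adjusted p = 0.529) for H2BC8, which did not pass.

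**Figure D3:**
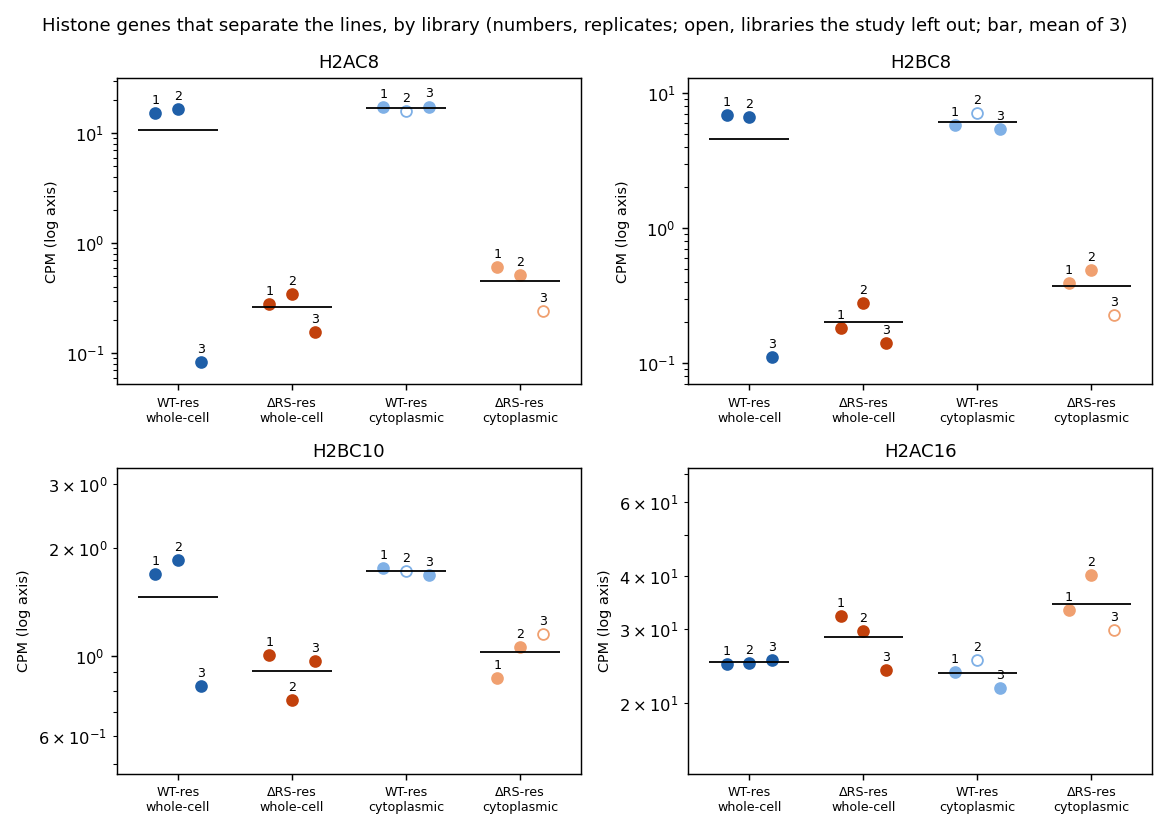
CPM by library (log axes) of H2AC8, H2BC8, H2BC10 and H2AC16 in the 4 groups, with replicate numbers, open points for the libraries that the study left out and bars for group means. In the 2 upper panels only the whole-cell library labelled WT-res replicate 3 leaves the level of its line.

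The next member on each side did not fall to a like extent. H4C5, the next member on the side of H2BC8 (26204610 to 26205021), was read at 290.9, 293 and 249.2 CPM in WT-res and 288.3, 253.9 and 237.6 CPM in ΔRS-res whole-cell RNA. H3C6, the next on the side of H2AC8 (26224199 to 26227473), was between 8.77 and 9.15 CPM in all whole-cell libraries of both lines. With all libraries neither flanking member separated the lines. Without the library that went against its label the H4C5 groups did not overlap, at a log2 fold change of -0.19 (SE 0.0914, adjusted p = 0.308, edgeR), and those of H3C6 did (-0.05, adjusted p = 0.831). Most counts of H3C6 came from a longer spliced form, as given above. Past H3C6, H1-3 (26234212 to 26234987) and H2BC10 (26272931 to 26273412) were lower in ΔRS-res without that library. Their log2 fold changes were -0.74 (adjusted p = 0.19, edgeR) and -0.98 (adjusted p = 0.0496). H4C8 and H2BC11, further along, stood at -0.10 and -0.13 (adjusted p = 0.58 and 0.396).

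Because the starts are so close, a single stretch lies upstream of both. It is printed for H2AC8 from RefSeq (GRCh38.p14, chr6:26216671-26216970, plus strand, from 250 bases before the start to 50 after it), with the matches of 3 searched motifs in capitals:
H2AC8: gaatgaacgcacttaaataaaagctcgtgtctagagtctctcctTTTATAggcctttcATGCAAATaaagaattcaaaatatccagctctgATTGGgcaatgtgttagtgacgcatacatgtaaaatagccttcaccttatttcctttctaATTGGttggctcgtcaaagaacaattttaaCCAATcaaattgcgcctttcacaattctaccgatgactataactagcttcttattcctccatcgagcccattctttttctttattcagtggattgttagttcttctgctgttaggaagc
The motifs were the TATA box (TATAAA), the CCAAT box (CCAAT) and the octamer (ATTTGCAT), each searched on both strands. In H2AC8 the TATA and octamer matches, on the opposite strand, began 206 and 192 bases before the start, and the CCAAT matches 159, 99 and 69 bases before it. Read from H2BC8, the same letters gave a TATA match at -32, an octamer at -48 and CCAAT boxes at -78, -138 and -168. All 60 members had a promoter in the table. A TATA match was found in 70% of them (11.4% of 35056 other promoters of the same length), a CCAAT match in 85.0% (34.5%) and an octamer in 43.3% (1.7%). These are matches of letters and not measured binding sites.

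Beyond this gene pair, the cytoplasmic comparison depended on which libraries entered it. With the 4 libraries kept by the study, 8 members were called higher and 7 lower in ΔRS-res, against 10.7% and 11.4% of the 25814 genes tested. With all 6 libraries 0 were called higher and 2 lower, against 0.578% and 0.948% of 25949 genes, these 2 being H2AC8 and H2BC8. Of the 15 calls with 4 libraries, 10 had overlapping groups once the remaining libraries were added. In 7 of the 15 the left-out WT-res replicate 2 lay nearer to the ΔRS-res libraries that were kept, and in 10 the left-out ΔRS-res replicate 3 lay nearer to the WT-res ones.

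H2AC15, an H2A gene of chromosome 6, had 17.6 and 16.9 CPM in the WT-res and 30.2 and 37.1 CPM in the ΔRS-res libraries that were kept. The libraries left out read 26 CPM in WT-res and 22.2 CPM in ΔRS-res, in reverse order. The log2 fold change was 0.99 (SE 0.104, adjusted p = 0.00246, edgeR) with 4 and 0.57 (SE 0.223, adjusted p = 0.4) with 6 libraries. H3C4, whose counts are an estimate because of its overlapping gene model, showed the same. It had 89.3 and 77.6 CPM against 136.8 and 158.1 CPM, and 135.2 CPM in the WT-res and 77.4 CPM in the ΔRS-res library left out. Its log2 fold change went from 0.84 (adjusted p = 0.00295, edgeR) to 0.31 (adjusted p = 0.801), and that of H3C1 from 0.86 (adjusted p = 0.00413) to 0.39 (adjusted p = 0.662). H3C4 and H3C1 were named after their values were seen, as was H2BC10, whose groups stayed apart in all 6 libraries (1.76, 1.72 and 1.68 CPM in WT-res, 0.866, 1.06 and 1.15 CPM in ΔRS-res) at log2 fold changes of -0.81 (adjusted p = 0.0161, edgeR) and -0.74 (adjusted p = 0.0887).

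H2AC16 stayed apart too. It was read at 23.7, 25.4 and 21.8 CPM in WT-res and 33.2, 40.1 and 29.9 CPM in ΔRS-res cytoplasm, with log2 fold changes of 0.71 (SE 0.101, adjusted p = 0.00592, edgeR) with 4 and 0.55 (SE 0.122, adjusted p = 0.0889) with 6 libraries. Groups that did not overlap over the 6 libraries were found for 7 members, 3 higher and 4 lower in ΔRS-res, against 8.39% and 9.04% of all genes. Of the other histones, the processing factors, S phase genes, G2 and mitosis genes and chaperones, 0 of 100 were called by edgeR between the lines in whole-cell RNA (17 at an unadjusted p under 0.05 and 7 by DESeq2's Wald test), in the 6 cytoplasmic libraries (2 and 0) or in the interaction (11 and 0). Of all genes, an unadjusted p under 0.05 was reached by 3360 of 26793, 2797 of 25949 and 1472 of 26686, in that order. With the 4 libraries 3 of the 12 other histones were called higher and 1 lower, and of the 22 processing factors 2 and 3, of the 39 S phase genes 10 and 3, of the 15 mitotic genes 3 and 1, and of the 12 chaperones 4 and 2.

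The third pattern lay between replicates. Among the 51 members with a mean count of at least 100, 12 lay in whole-cell replicate 3 of both lines under 80% of the mean of the other replicates (23.5%, against 5.02% of 14938 genes at that level), and 1, H3C14, was higher in both by more than the inverse of that ratio (1.96%, against 12.1%). The 12 were H1-3, H2AC4, H2AC8, H2AC12, H2BC8, H2BC18, H2BC26, H3C1, H3C4, H4C1, H4C2 and H4C4. Replicate 3 of WT-res is the library that went against its label, so that "both lines" holds by label only and may not be a repeat in a second line. The same 12 were lower in ΔRS-res replicate 3, whose DDX19B and SDHA went with its label. Summed with PPARGC1A these stood at 868.7 CPM there, against 675.3 and 685.4 CPM in ΔRS-res whole-cell replicates 1 and 2. In the library that went against its label the sum was 814.7 CPM. For H2AC8 and H2BC8 the WT-res difference is that of the library labels described above. Single members other than H2BC18 are named here after their values were seen.

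Summed, the 12 members made up 1850, 1843 and 1179 CPM in WT-res and 1805, 1599 and 1164 CPM in ΔRS-res whole-cell RNA. The other 38 made up 10230, 10050 and 10130 CPM and 10330, 9196 and 10080 CPM. Replicate 3 was thus the lowest library for the 12 in both lines and lay between the others for the rest, as choosing the 12 by this measure favours. H3C4 stood at 121.2, 118 and 56.1 CPM in WT-res and at 128.7, 114.7 and 54.8 CPM in ΔRS-res, and the linker histone H1-3 at 189.5, 194.3 and 66.8 CPM and at 146.5, 132.3 and 70.3 CPM. H3C4 shares 96% of its windows with an overlapping gene model, so its values are estimates. H2BC18, the leading H2B gene, moved less, from 550.8 and 557.5 to 411.6 CPM and from 560 and 512 to 415.3 CPM. H1-2, the leading linker histone, was highest in replicate 3, with 1018, 1031 and 1154 CPM and 1081, 971.8 and 1193 CPM.

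**Figure D4:**
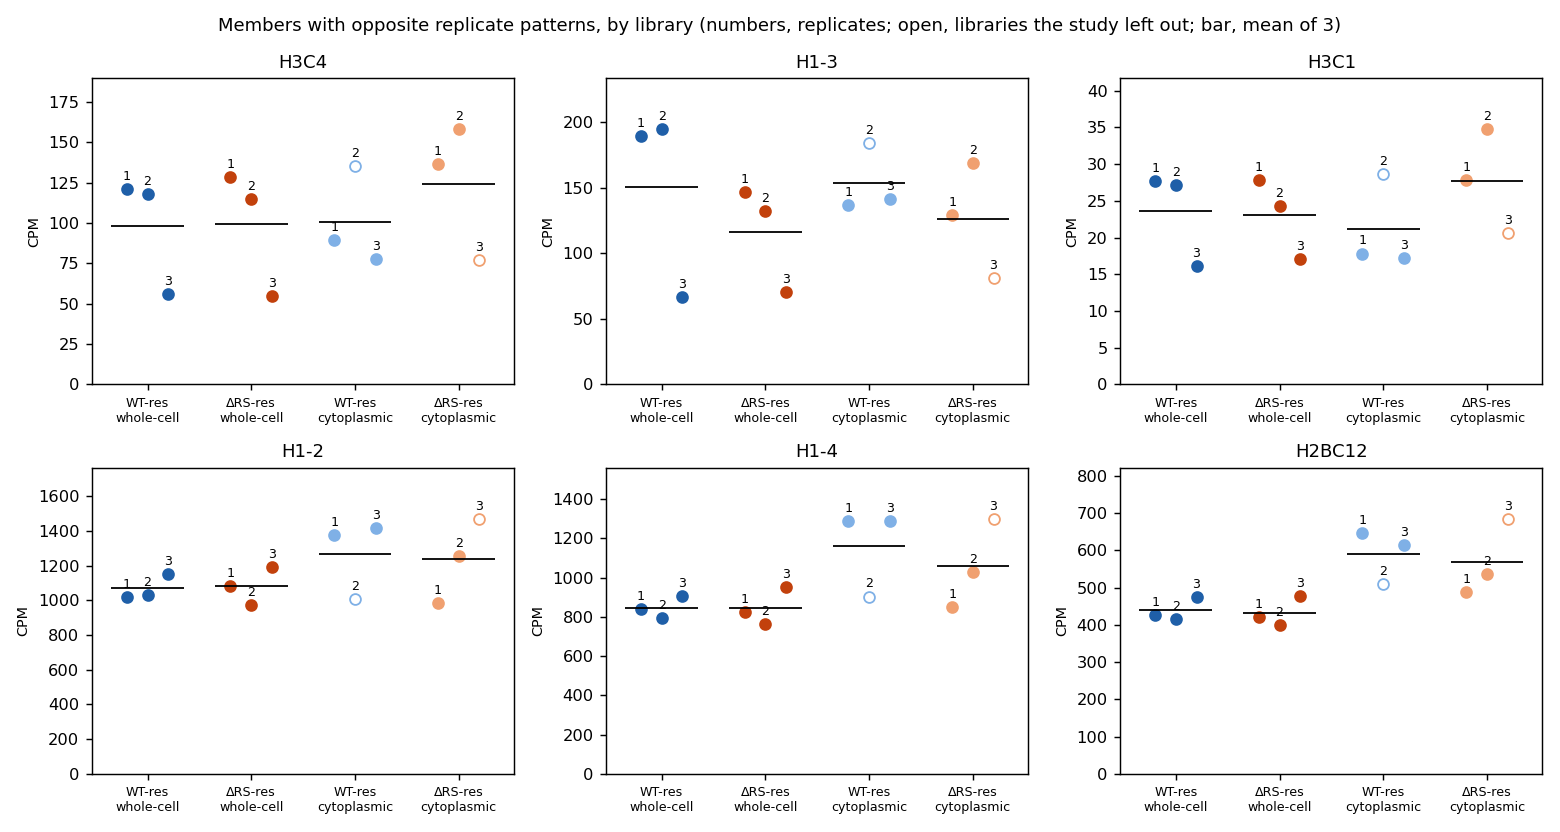
CPM by library of H3C4, H1-3 and H3C1 (top) and of H1-2, H1-4 and H2BC12 (bottom) in the 4 groups, with replicate numbers, open points for the libraries that the study left out and bars for group means. As labelled, whole-cell replicate 3 is lowest in both lines in the top row and highest in both lines in the bottom row. The members were picked to show these patterns, and WT-res replicate 3 is the library that went against its label.

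In the cytoplasm the 12 members summed to 1822, 1973 and 1705 CPM in WT-res and 1879, 2207 and 1559 CPM in ΔRS-res. Replicate 2 was thus highest and replicate 3 lowest in both lines. H3C4 was high in WT-res replicate 2 only and low in ΔRS-res replicate 3 only, and these are the 2 libraries that the study left out. Their part in the calls made with 4 libraries was not tested further than by adding them. The 12 were not 1 stretch of the genome: 10 of them were among 37 members on chromosome 6 and fell into 6 runs of neighbours, the longest of 3 members. The median log2 deviation of the 39 S phase genes from their mean over 12 libraries was -0.10, -0.09 and -0.19 in WT-res and -0.07, -0.09 and -0.15 in ΔRS-res whole-cell RNA, lowest in replicate 3 of both lines, and its part in the histone values was not tested.

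**Figure D5:**
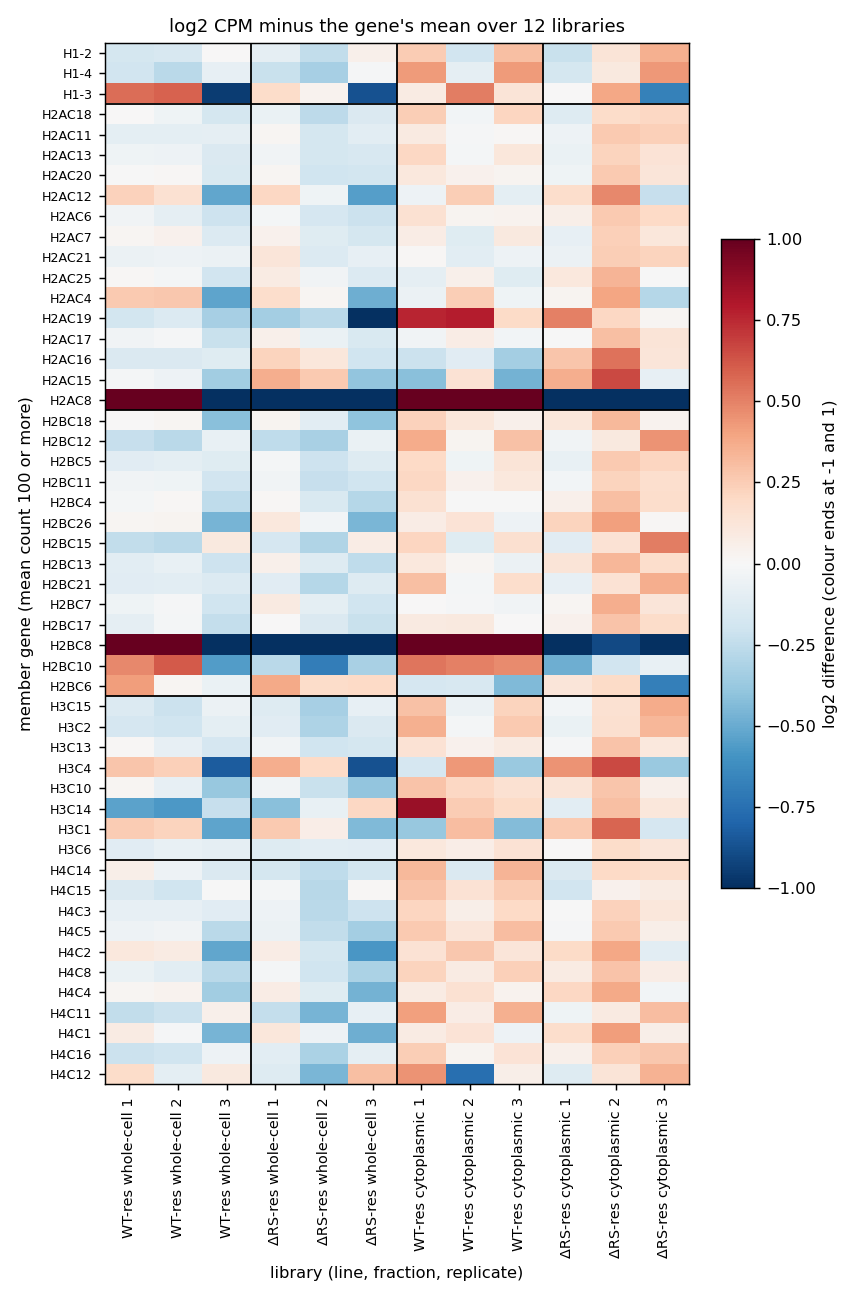
Log2 CPM of the 51 members with a mean count of 100 or more, minus each gene's mean over the 12 libraries (colour from -1 to 1), by family and library. H2AC8 and H2BC8 split the lines, H1-3, H2AC12, H3C4 and H3C1 are blue in whole-cell replicate 3 of both lines as labelled, and most other members are slightly red in the cytoplasm.

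Between the highest and the lowest replicate of a group the median member differed 1.15-fold in WT-res whole-cell RNA (all genes 1.23-fold) and 1.02-fold without the library labelled replicate 3 (all genes 1.06-fold). In ΔRS-res whole-cell RNA these ratios, of members and all genes, were 1.23 and 1.16, in WT-res cytoplasm 1.16 and 1.2, and in ΔRS-res cytoplasm 1.28 and 1.2. A ratio over 1.5 was reached by 17.6% of the 51 members (all genes 20.1%) in WT-res whole-cell and 11.8% (14.4%) in WT-res cytoplasmic libraries. In ΔRS-res it was reached by 25.5% (9.45%) in whole-cell and 21.6% (14.6%) in cytoplasmic libraries, so that the members varied more than all genes in this line.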

How the data were processed

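The authors trimmed reads with Trim Galore, aligned them to GRCh38 with STAR and quantified Ensembl transcripts with RSEM (versions not given in the sources used here). The deposited values were RSEM's expected counts for each transcript, without scaling. RNA was depleted of rRNA and sequenced as 100-base paired reads. Here expected counts were summed per gene, rounded, and kept where the mean in a fit was above 2. They were tested with edgeR 4.0.16 (TMM, quasi-likelihood test, Benjamini-Hochberg over all genes tested) in R 4.3.3, with DESeq2 1.42.0 as an alternative. Fractions and the interaction were tested in 1 fit of 12 libraries, and lines within a fraction, in the cytoplasm with the 4 libraries the study kept and with all 6. RSEM divides reads between near-identical genes by estimate, so such members are uncertain singly. Genes, types and lengths came from GENCODE 44, which matched 61757 of 61860 genes and transcripts with 99.68% of counts. Promoters came from RefSeq.

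The members, gene lists and tests were chosen with earlier results of these data known. Named in full were the 2 members of highest level per family and, for each comparison, up to 3 called members of the largest change, or, with none called, the 2 of lowest p. The others are named after their values were seen. Tests were tried on simulated data with known changes. No libraries were copies (chi-square per gene of at least 15.8). Alternatives were other scalings, filters, the study's threshold (unadjusted p under 0.05 and a log2 fold change above 0.5 in size), a replicate block, the study's 10 libraries, and each library left out. The 10 libraries without the whole-cell library labelled WT-res replicate 3, and summed near-identical pairs, were added after the values were seen.

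Between the lines, deviations of whole-cell libraries of equal number from their group means were correlated (Pearson's r over 14938 genes of 0.545, 0.55 and 0.683), so the replicate block is given beside the whole-cell results where it changes a call. The cytoplasmic ones did not in every pair (-0.42, 0.619 and 0.467). Fractions of a line and number are paired by the pellet ID of the sample sheet, with correlations of -0.167, 0.588 and 0.473 in WT-res and 0.518, 0.466 and 0.797 in ΔRS-res. The last WT-res pair holds the whole-cell library that went against its label.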

Additional observations from a re-analysis of the deposited data

How the results depend on the processing

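Of 111 recounts of called members under an alternative, 85 stayed within 1.5 times the reported count and 26 did not. The calls for cytoplasmic over whole-cell RNA in WT-res, 12 as reported, were 21 with DESeq2 size factors and 21 with DESeq2's Wald test. They were 27 with upper-quartile scaling, 4 with library totals, 5 at the study's threshold and 2 to 15 leaving out 1 library each. With the study's 10 libraries less the one labelled WT-res replicate 3 they were 17 (15 higher, 2 lower). The median of 0.21 was 0.32 with upper-quartile scaling. In ΔRS-res the 22 became 3 with library totals, 4 at the study's threshold (3 higher, 1 lower), 10 with the study's 10 libraries, 25 when the whole-cell library labelled WT-res replicate 3 was also dropped, and 5 to 29 leaving out 1 library each. For the lines in whole-cell RNA, 0 became 2 at the study's threshold, 2 with the Wald test and 0 to 3 leaving out 1 library, the 3 without the whole-cell library labelled WT-res replicate 3. For the 4 cytoplasmic libraries, 15 became 9 at the study's threshold, 32 without a filter and 12 to 19 leaving out 1, which left an arm with 1 library assumed to vary like the others. For 6, 2 became 5 at the study's threshold, 4 with the Wald test and 2 to 3 leaving out 1. The interaction gave 1 call at the study's threshold. All-gene counts moved with the settings too. In WT-res 5605 genes were called higher with DESeq2 size factors, and in ΔRS-res 4061 of 26704 with the study's 10 libraries. Between the lines, the 4 cytoplasmic libraries without a filter gave 3162 higher and 4318 lower of 36828 genes. The causes were not tested.

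With the replicate number as a block, whole-cell calls between the lines went from 0 to 2 and cytoplasmic ones from 2 to 4 (adding H2AC15 and H2AC16). Of all genes, this block called 746 higher and 1390 lower of 26793 in whole-cell RNA, and 194 and 326 of 25949 in the cytoplasm. The pellet as a block gave 18 in WT-res and 29 in ΔRS-res, beside 6014 and 5504 of all 26686 genes called higher and 7076 and 7078 lower. It left the interaction at 0. In the cytoplasm the lines share only a number, and with 4 libraries no block was fitted because only replicate 1 is shared.

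Of 894 alternatives for single members, 772 kept direction and side of the threshold, 48 passed only then, 63 no longer passed, and 11 turned sign, each from a small estimate. H4C15 in ΔRS-res turned to -0.014 with library totals and ranged from -0.013 (without whole-cell replicate 2) to 0.15 leaving out 1 ΔRS-res library. Between the lines in whole-cell RNA, H3C4 turned to -0.00074 with edgeR's filterByExpr, -0.0065 with the block, -0.28 without the whole-cell library labelled WT-res replicate 3, and -0.23 and -0.11 without ΔRS-res replicate 1 or 2, and reached 0.29 without ΔRS-res replicate 3. H3C1 turned to 0.08, 0.07 and 0.13 without WT-res replicate 1 or 2 or ΔRS-res replicate 3, with -0.27 at the other end, and H1-3 to -0.088 with the 4 cytoplasmic libraries without ΔRS-res replicate 2, with 0.31 at the other end. Depth limits members under 1 CPM, such as H2AC1 and H4C9.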

Other observations

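The estimated shares of transcript forms varied between replicates in H2AC25, an H2A gene of chromosome 1. Its longer form H2AC25-201 (895 bases) held 25%, 24.1% and 41.5% of the gene's counts in WT-res whole-cell replicates 1 to 3, and 25.3%, 25.8% and 40.4% in ΔRS-res. In the cytoplasm the shares were 38.7%, 24% and 39.6% in WT-res and 27.8%, 23.8% and 35% in ΔRS-res. The short form H2AC25-202 (510 bases) took nearly all of the remainder. Whole-cell replicate 3 was highest in both lines, although the former in WT-res is the library that went against its label, and no test was run on these shares. The division between forms is an estimate of RSEM.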
